A study of Mus musculus with 15 samples.

Results

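Stem cells from the subventricular zone of adult mice, taken 1 day after differentiation was induced, were compared with the same kind of cells kept undifferentiated. The members are arrays, chosen by their titles: 5 arrays titled as 24 h differentiated and 5 titled as undifferentiated, 10 of the 15 arrays of the series. The other 5 arrays, from 12 h, enter the estimate of spread between arrays and the choice of the probe sets and genes tested. The cells came from female C57Bl6/J mice of 6 months and were grown as neurospheres, free-floating clusters of dividing progenitors, and used at passages 5 to 7. The undifferentiated cells were harvested in growth factors, per the labels. The 24 h cells had spent 24 h without growth factors, in 5% serum and on poly-D-lysine, a coating to which cells attach. Loss of growth factors, serum and attachment came together, so their effects cannot be told apart. Neurospheres are mixed cultures of stem cells and committed progenitors, and in such bulk samples fewer cells of a type and less RNA per cell cannot be told apart. Separate cultures or animals behind the 5 samples are not stated, so a p-value here speaks only of the spread between them, part of which may be technical.

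The subventricular zone lines the lateral ventricles and keeps stem cells through adult life. EGF and FGF bind receptor tyrosine kinases on these cells and signal through Ras and the kinase ERK, which holds them in division and switches on a set of feedback inhibitors. When the factors are taken away, progenitors leave the cell cycle and give rise to astrocytes, oligodendrocytes and neurons. The comparison asks which genes differed after 1 day.

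Titles and file names disagree in this series. The array code differs between title and array file in 13 of 15 samples, and for 5 of the 10 arrays used here the file code would give another group. Grouped by titles, as here, limma called 2536 genes and 3392 had an unadjusted p under 0.05. Grouped by the file codes, it called 0 genes and 118 had an unadjusted p under 0.05. Replicates below are numbered in the order of the samples, and the same number does not mark a pair. The codes in the titles do form 6 runs of consecutive numbers, and 4 runs hold both groups: undifferentiated replicates 2, 3, 4 and 5 share a run with 24 h replicates 1, 2, 3 and 5. What a run stands for is not given. Over genes, the deviations of such arrays from their group means correlated by 0.15 to 0.468 in the 4 runs, against -0.43 to 0.442 for arrays of different runs. The fit used throughout has no term for runs. With runs as a random block limma called 1332 genes higher and 1977 lower, and with runs as a fixed block 1211 and 1866. In the fixed block 24 h replicate 4, alone in its run, adds nothing. The codes in the titles end in 3 suffixes, called A, B and C, and what they stand for is not given. Undifferentiated replicates 1 and 2 carry A, 3 and 4 carry B and 5 carries C. At 24 h replicate 1 carries A, 2 and 3 carry B, and 4 and 5 carry C. The beta-actin control probe sets at the 3' and 5' ends of the transcript give a ratio that rises as RNA is degraded or copied less fully. It was 1.95 ± 0.238 in undifferentiated arrays (SD, n = 5, from 1.63 to 2.22) and 2.78 ± 0.365 at 24 h (SD, n = 5, from 2.23 to 3.21). The groups did not overlap (exact permutation test, two-sided p = 0.00794, the smallest that 5 against 5 allow). The same ratio for Gapdh was 1.19 ± 0.207 and 1.34 ± 0.0788 (SD, n = 5 each; exact permutation p = 0.151). With the actin ratio as a covariate, limma called 13 genes, 12 of them among the calls reported here. The ratio and the group moved together, so their effects can hardly be told apart. No list below kept more than 1 called member with it, and 44 of the 48 lists kept none. The part of RNA quality in the results was not tested further, and this holds for every gene group below.

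**Figure D1:**
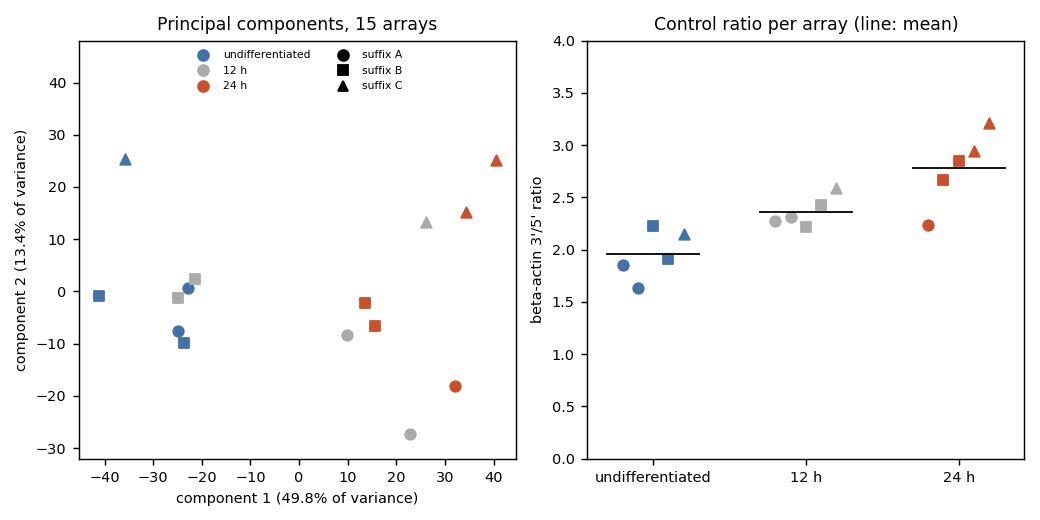
Left, first and second principal components of the 15 arrays over the genes tested, with colour for the group and symbol for the title code suffix. The undifferentiated arrays sit between -41.2 and -22.8 and the 24 h arrays between 13.6 and 40.5 on component 1, which holds 49.8% of the variance. Right, beta-actin 3'/5' ratio of each array, with a line at each group's mean.

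Values are log2 levels, and a difference of 1 is a doubling of the deposited signal. Differences are 24 h minus undifferentiated, with the standard error of the limma fit and 5 arrays per group. A gene was called where its adjusted p was under 0.05. Of 7909 genes tested, 2536 were called, or 32.1%. Among them 1003 were higher at 24 h (12.7% of genes tested) and 1533 were lower (19.4%). At least 2-fold higher were 310 genes (3.92%), and at least 2-fold lower were 493 (6.23%). For 1983 genes (25.1%) the 5 arrays of each group did not overlap. The median difference was -0.060 over all genes tested, 0.74 over those called higher and -0.77 over those called lower. The direction was the same within all 3 suffixes for 2521 of the called genes, a description only, since the same arrays made the calls. Without the suffix C arrays the calls were 516 higher and 612 lower, 1074 of them among the calls reported here. The split between directions rests on scaling: with each array set to a common median, which moved all genes by 0.15 towards 24 h, 1431 genes were higher and 1110 lower. With quantile normalisation the counts were 1590 and 1302, after a shift of 0.11. With the suffix as a block limma called 1434 genes higher and 1874 lower. Where a list's count is given below for another setting, it stands against the count of all genes in that setting. The 24 h arrays stood apart from one another in how far they had moved. Their standard deviation over genes from the undifferentiated mean was 0.61 and 0.59 in replicates 2 and 3 (suffix B), against 0.76, 0.77 and 0.83 in replicates 1, 4 and 5. An undifferentiated array differed from the other arrays of its group by 0.27 to 0.43.

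**Figure D2:**
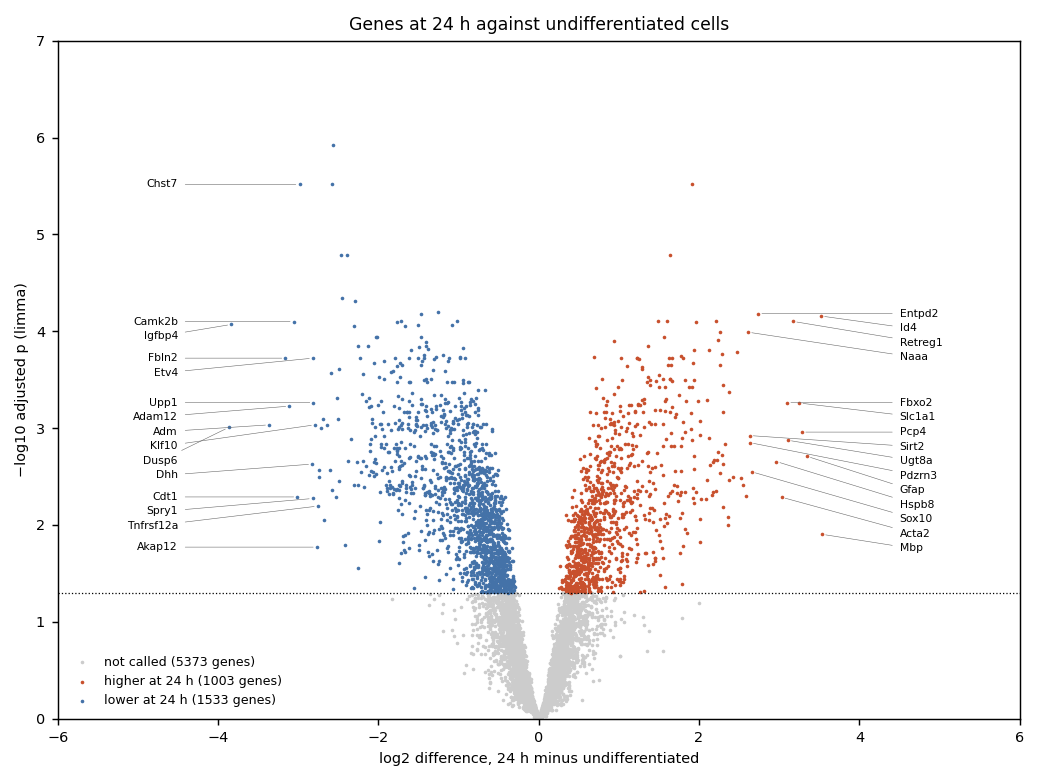
Each point is 1 of 7909 genes, by its log2 difference (24 h minus undifferentiated) and the negative log10 of its limma adjusted p. The dotted line marks an adjusted p of 0.05, and the labels name the 15 genes that rose most and the 15 that fell most, among those called without overlap of the groups.

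The 15 largest rises were drawn only from called genes whose groups did not overlap, so their lack of overlap is part of that choice. Among the largest rises at 24 h were genes of glia. Mbp, the myelin basic protein, had log2 levels of 4.43, 5.76, 6.56, 5.39 and 5.02 on the undifferentiated arrays and 7.21, 9.12, 8.52, 9.81 and 10.18 at 24 h. All 24 h arrays lay above all undifferentiated arrays, with replicate 1 the lowest of them. Mbp rose by 3.53 ± 0.98 (adjusted p = 0.0125), an 11.6-fold increase. Id4, an inhibitor of bHLH transcription factors that responds to BMP, had levels of 4.40, 4.26, 4.80, 3.62 and 3.07 and then 7.78, 6.91, 7.43, 7.40 and 8.25, again without overlap. It rose by 3.52 ± 0.39 (adjusted p = 6.97e-05), 11.5-fold. Gfap, the intermediate filament of astrocytes, rose by 3.35 ± 0.67 and Slc1a1, a glutamate transporter, by 3.25 ± 0.52. Pcp4, a calmodulin regulator, rose by 3.28 ± 0.60, and its levels moved from between -0.12 and 0.94 to between 3.31 and 4.45. Retreg1, a receptor for autophagy of the endoplasmic reticulum, rose by 3.17 ± 0.37 and Fbxo2, a ubiquitin ligase subunit that binds glycoproteins, by 3.10 ± 0.50. Hspb8, a small heat shock protein, rose by 2.96 ± 0.60. Ugt8a, Acta2, Entpd2, Sox10 and Sirt2 are described with their groups. Pdzrn3 (2.63 ± 0.50), a ubiquitin ligase, and Naaa (2.61 ± 0.32), a lipid amidase, complete the 15.

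The 15 largest falls were drawn by the same rule, so in them too the lack of overlap is part of the choice. They held feedback inhibitors of growth factor signalling and secreted factors. Dusp6, a phosphatase that inactivates ERK and is itself an ERK target, had levels of 6.47, 7.30, 6.58, 6.95 and 8.15 in undifferentiated cells and 1.87, 4.49, 3.67, 2.78 and 3.30 at 24 h. The groups were far apart, with the highest 24 h level in replicate 2 and the lowest in replicate 1. Dusp6 fell by 3.87 ± 0.70 (adjusted p = 0.000986), 14.6-fold. Igfbp4, a protein that binds insulin-like growth factors, had levels of 6.86, 6.32, 5.97, 6.55 and 6.08 and then 2.54, 3.11, 3.65, 2.30 and 1.0. It fell by 3.84 ± 0.45 (adjusted p = 8.51e-05) without overlap. Chst7, a chondroitin sulfotransferase, had levels of 5.05, 5.23, 5.22, 5.85 and 5.81 and then 2.28, 2.63, 2.89, 2.38 and 2.06. Both groups were tight, and Chst7 fell by 2.98 ± 0.25 (adjusted p = 3.04e-06), 7.91-fold. The vasoactive peptide gene Adm fell by 3.36 ± 0.60, the matrix protein gene Fbln2 by 3.16 ± 0.43 and the metalloprotease gene Adam12 by 3.11 ± 0.51. Camk2b, a calcium/calmodulin-dependent kinase subunit, fell by 3.06 ± 0.36. Further down were Upp1, a uridine phosphorylase (-2.81), the transcription factor Klf10 (-2.79), the kinase anchor Akap12 (-2.77) and Tnfrsf12a, the TWEAK receptor (-2.76). Mylk, myosin light chain kinase, had the smallest p of all genes, a feature picked after values were seen: it fell by 2.57 ± 0.18 (adjusted p = 1.19e-06).

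**Figure D3:**
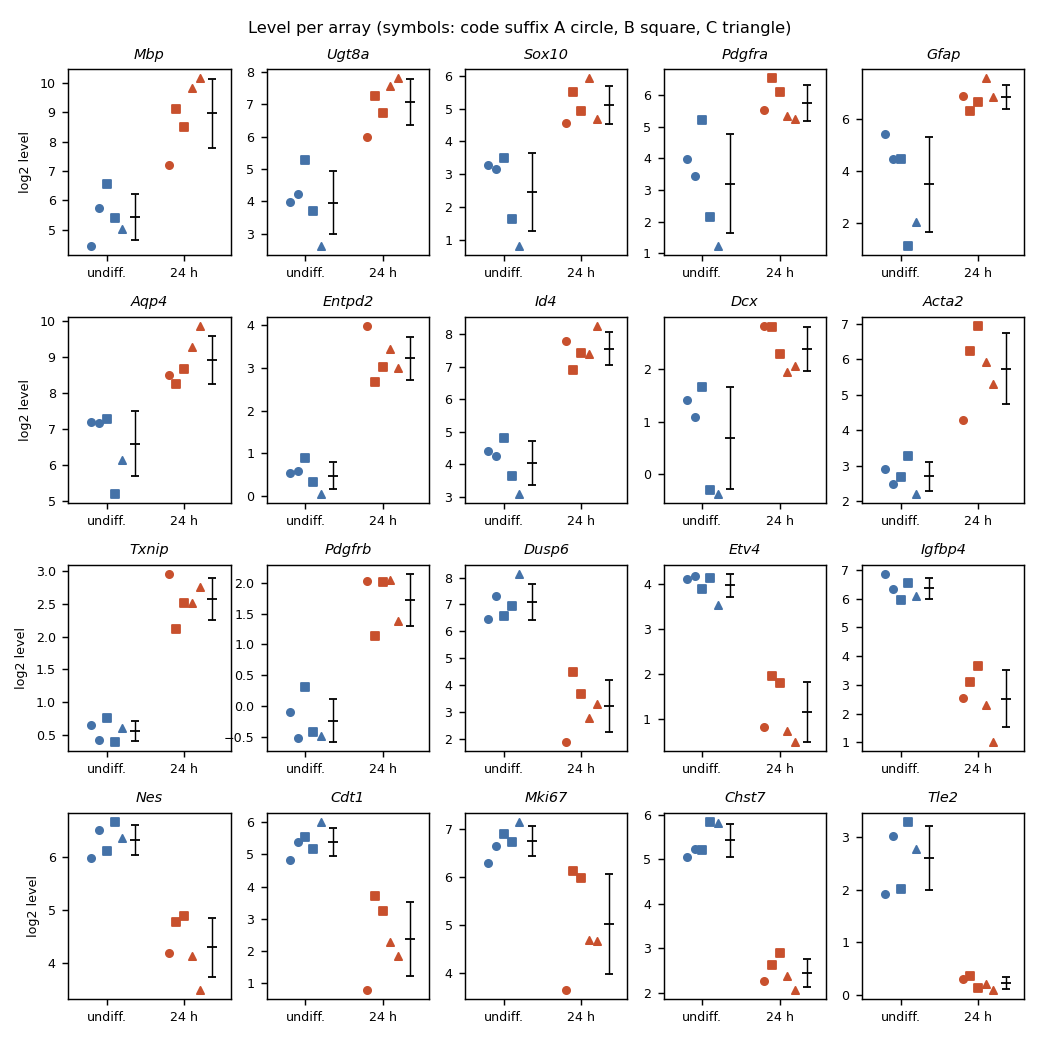
Log2 level of 20 genes on each of the 5 undifferentiated arrays (blue) and 5 24 h arrays (orange). Symbols give the title code suffix, and the black bar beside each group is its mean with its standard deviation. The vertical axes differ between genes and do not start at 0. In all 20 genes the groups do not overlap, which the rule for the largest rises and falls required of many of them. In Cdt1 and Mki67 the 24 h arrays of suffix B lie nearest the undifferentiated level.

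Genes that respond to ERK were lower. Of the 12 ERK response genes tested, 10 fell, against 19.4% of all genes, and 2 were not called. The median of the 12 was -2.08, and by suffix (A, B, C) -2.11, -1.34 and -2.85. The Ets factors Etv4 and Etv5, which carry out FGF responses, stood at 4.12, 4.18, 3.90, 4.14 and 3.55 and 2.98, 3.85, 3.79, 4.84 and 3.12 in undifferentiated cells. At 24 h they stood at 0.82, 1.95, 1.81, 0.74 and 0.48 and 0.85, 2.11, 1.72, 0.082 and 0.62. Neither gene overlapped between groups, and they fell by 2.82 ± 0.39 and 2.64 ± 0.47 (adjusted p = 0.00019 and 0.000927). Spry1 and Spry2, which block Ras activation, fell by 2.82 ± 0.67 and 1.19 ± 0.27, and the related Spred1 and Spred2 by 0.60 ± 0.18 and 2.12 ± 0.35. Ccnd1, the cyclin D1 that links growth factors to the cell cycle, had levels of 8.11, 8.30, 7.57, 8.30 and 9.16 and then 4.37, 6.83, 6.18, 5.13 and 5.23. It fell by 2.74 ± 0.59 (adjusted p = 0.00319) with differences of -3.83, -1.43 and -3.98 within A, B and C. Phlda1 and the survival gene Ier3 fell by 1.24 and 2.04. Myc and Egr1 were not called, at -0.24 and 0.21. Without the suffix C arrays 5 of the 12 were called, and Ccnd1 and Spry1 were not among the calls. Over all 7909 genes tested, that setting called 516 higher and 612 lower.

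Of 14 EGF and FGF ligands, receptors and adaptors tested, 2 rose and 3 fell, or 35.7% called against 32.1% of all genes, and another 5 lay below the expression filter. Egfr, the EGF receptor, had levels of 5.43, 5.83, 5.91, 5.77 and 5.98 and then 4.99, 4.94, 4.95, 4.41 and 4.22, and fell by 1.08 ± 0.24 (adjusted p = 0.00328). Fgfr1, an FGF receptor, stood at 4.69, 4.98, 4.49, 4.94 and 4.71 and then at 4.21, 3.55, 4.23, 4.09 and 3.14. It fell by 0.92 ± 0.22, and Fgfrl1, a receptor without a kinase domain, by 1.11 ± 0.29. Fgfr2 rose by 0.92 ± 0.21 although its groups overlapped, while Fgfr3 was at 0.12 and not called. Tgfa, a ligand of the EGF receptor, rose by 1.59 ± 0.30: its levels were 3.17, 3.09, 4.05, 2.67 and 2.07 and then 4.42, 4.87, 4.57, 4.38 and 4.76, without overlap. Hbegf, another such ligand, was at -1.84 with non-overlapping groups and an adjusted p of 0.0589. None of the 14 immediate early genes tested was called by limma, and 0 had an unadjusted p under 0.05, with Fos at 1.35, Junb at 0.75, Jun at -0.38 and Klf6 at -0.77. The Fos levels spread from 4.86 to 8.10 in undifferentiated cells and from 7.32 to 9.62 at 24 h. Without 24 h replicate 2, which held the highest Fos level, 3 immediate early genes were called lower.

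The machinery of G1 fell in part. Of 14 G1 cyclins, CDKs and Rb and E2F genes tested, 8 fell and 1 rose, or 64.3% called against 32.1% of all genes. The median was -0.99. Besides Ccnd1, cyclin D2 (Ccnd2) fell by 1.49 ± 0.45, cyclin E1 (Ccne1) by 1.34 ± 0.25, cyclin E2 (Ccne2) by 1.72 ± 0.52 and their kinase Cdk2 by 1.26 ± 0.29. The activating factor E2f1 fell by 1.11 ± 0.24, the repressor E2f6 by 0.86 ± 0.18 and the Rb relative Rbl1 by 1.72 ± 0.35. Rb1 itself, which holds E2F in check, rose by 0.51 ± 0.16, a call that ended without undifferentiated replicate 1, 2 or 4 or 24 h replicate 1 or 4 and with runs as a fixed block. Cdk4 and cyclin D3 were not called, at -0.10 and -0.37. The CDK inhibitors divided: Cdkn1b (p27), which accumulates in resting cells, rose by 0.62 ± 0.15 from 4.56, 4.54, 4.41, 4.44 and 4.26 to 5.30, 4.73, 5.08, 5.34 and 4.86. That call was lost when all its probe sets were averaged. Cdkn1a (p21) had levels of 6.71, 6.58, 6.12, 7.41 and 7.39 and then 5.13, 5.37, 5.37, 5.79 and 4.91, and fell by 1.53 ± 0.26 (adjusted p = 0.000827), and Cdkn2d (p19) fell by 0.68 ± 0.16. Cdkn1c (p57) was at 1.30 with an adjusted p of 0.0895, and its undifferentiated levels ran from 0.17 to 3.21. It was called with the suffix as a block.

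All 33 DNA replication genes tested were lower at 24 h, against 19.4% of all genes, with 2 more below the filter. In all 33 the groups did not overlap, against 25.1% of all genes. The median was -1.53, the range ran from -3.01 to -0.66, and 26 fell at least 2-fold. By suffix (A, B, C) it was -1.98, -1.04 and -2.15. Licensing of origins held the largest fall. Cdt1, which loads the helicase, had levels of 4.82, 5.38, 5.53, 5.18 and 6.02 and then 0.78, 3.73, 3.24, 2.29 and 1.84. The lowest 24 h level was in replicate 1 and the highest in replicates 2 and 3, and Cdt1 fell by 3.01 ± 0.71 (adjusted p = 0.00515). The helicase subunits Mcm2 to Mcm7 fell by 2.25, 2.75, 2.06, 2.53, 1.98 and 0.98. Cdc45, which travels with that helicase, fell by 1.79 ± 0.31 (adjusted p = 0.000877), and the loader Cdc6 by 2.15 ± 0.45. At the fork, the polymerase subunits Pola1, Pole and Pold1 fell by 1.40, 1.85 and 1.38, and the primase subunit Prim1 by 1.81. The clamp Pcna fell by 1.26, and its loader subunits Rfc2, Rfc3, Rfc4 and Rfc5 by 0.66, 1.44, 1.51 and 1.80. Of the supply of nucleotides, thymidine kinase Tk1 fell by 2.71 ± 0.49 and the ribonucleotide reductase subunits Rrm1 and Rrm2 by 1.53 ± 0.27 and 2.12 ± 0.46. All 33 calls held when any single array was left out, and 12 held without suffix C. In that last setting 612 of all 7909 genes tested were called lower.

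The promoters of Rfc3 and Mcm7 are shown because they are the called replication genes with the smallest p whose promoter holds a match to the E2F motif, in capitals. They are RefSeq sequences of build GRCm38.p6, from 250 bases before to 50 after the start site and on the strand of the gene. Rfc3 lies at chr5:151651159-151651458 on the minus strand and Mcm7 at chr5:138171834-138172133 on the minus strand.
Rfc3: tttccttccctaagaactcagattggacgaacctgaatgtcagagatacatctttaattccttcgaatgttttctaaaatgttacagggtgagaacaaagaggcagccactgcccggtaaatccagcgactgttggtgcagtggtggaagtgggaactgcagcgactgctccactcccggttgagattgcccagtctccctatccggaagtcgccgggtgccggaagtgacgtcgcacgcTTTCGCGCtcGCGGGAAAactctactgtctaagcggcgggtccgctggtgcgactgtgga
Mcm7: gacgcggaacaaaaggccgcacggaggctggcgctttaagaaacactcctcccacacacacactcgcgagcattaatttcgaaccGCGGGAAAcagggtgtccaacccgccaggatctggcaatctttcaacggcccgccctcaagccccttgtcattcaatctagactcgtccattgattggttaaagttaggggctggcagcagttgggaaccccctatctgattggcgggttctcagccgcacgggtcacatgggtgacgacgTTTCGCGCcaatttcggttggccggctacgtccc
Rfc3 holds its matches at -10 and 1, and Mcm7 at -165 and 17, counted to the first letter of the match, with 1 as the first transcribed base. Rfc3 had levels of 3.72, 3.72, 3.41, 3.52 and 4.19 and then 2.24, 2.62, 2.51, 2.10 and 1.90, and fell by 1.44 ± 0.26 (adjusted p = 0.000927). Mcm7 had levels of 7.18, 7.82, 7.46, 7.42 and 7.91 and then 6.23, 7.10, 6.72, 6.65 and 6.18, and fell by 0.98 ± 0.20 (adjusted p = 0.00237). Neither overlapped between groups.

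Genes of mitosis and cytokinesis were lower almost throughout. Of the 43 tested, 42 fell, 40 of them at least 2-fold, against 19.4% and 6.23% of all genes. Only Cdc25b, a phosphatase that opens mitosis, was not called, at -0.57. In 34 the groups did not overlap, against 25.1% of all genes. The median was -1.73 and by suffix (A, B, C) -2.31, -0.93 and -2.47. Mki67, the Ki-67 protein of dividing cells, had levels of 6.30, 6.65, 6.90, 6.72 and 7.15 and then 3.63, 6.13, 5.99, 4.67 and 4.66. The 24 h arrays of suffix B, replicates 2 and 3, lay just under the undifferentiated arrays and replicate 1 far below. Mki67 fell by 1.73 ± 0.39 (adjusted p = 0.00393), with differences of -2.84, -0.76 and -2.48 within A, B and C. Cdk1, the mitotic kinase, showed the same order with 6.61, 6.54, 6.42, 6.83 and 7.25 and then 3.11, 5.72, 5.57, 4.23 and 3.66, and fell by 2.27 ± 0.46. Among entry factors, Ccna2 fell by 1.91 and Ccnb2 by 1.77, and among kinases Plk1 by 2.22, Plk4 by 2.20, Aurka by 1.93, Aurkb by 2.10 and Bub1 by 2.09. The topoisomerase Top2a fell by 2.06 and the condensin subunits Smc2 and Smc4 by 1.74 and 0.91. Kinesins ran from -0.62 in Kif22 to -1.93 in Kif20a, and the cytokinesis genes Prc1, Racgap1, Ect2 and Anln fell by 2.10, 1.89, 1.63 and 1.43. Without suffix C, 15 of the 43 were called, in a setting that called 516 genes higher and 612 lower of all 7909 tested.

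Cks1b and Ndc80 are shown because they have the smallest p among called mitosis genes whose promoter holds a CHR match, in capitals. Cks1b encodes a small subunit of cyclin-dependent kinases and Ndc80 a kinetochore protein. The sequences are from RefSeq, GRCm38.p6, with the window and strand as above. Cks1b lies at chr3:89418242-89418541 on the minus strand and Ndc80 at chr17:71526808-71527107 on the minus strand.
Cks1b: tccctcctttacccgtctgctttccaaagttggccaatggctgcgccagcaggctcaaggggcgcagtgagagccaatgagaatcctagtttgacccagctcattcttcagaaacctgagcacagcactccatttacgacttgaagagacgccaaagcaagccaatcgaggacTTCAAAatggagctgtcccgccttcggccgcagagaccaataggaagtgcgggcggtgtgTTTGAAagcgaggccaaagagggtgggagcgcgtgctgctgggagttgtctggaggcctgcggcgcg
Ndc80: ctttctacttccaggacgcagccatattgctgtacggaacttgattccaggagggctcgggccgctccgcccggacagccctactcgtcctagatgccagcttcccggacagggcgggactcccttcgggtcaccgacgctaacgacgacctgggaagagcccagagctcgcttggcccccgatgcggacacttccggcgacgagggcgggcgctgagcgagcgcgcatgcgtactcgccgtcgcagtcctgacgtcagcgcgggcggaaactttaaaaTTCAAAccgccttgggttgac
Cks1b holds its matches at -77 and -17 and Ndc80 at 30, on the same count. Cks1b had levels of 7.02, 7.05, 7.00, 7.24 and 7.75 and then 4.90, 5.76, 5.88, 5.60 and 5.38, and fell by 1.71 ± 0.27 (adjusted p = 0.000498). Ndc80 had levels of 2.05, 2.48, 2.62, 2.86 and 2.64 and then 0.25, 1.39, 1.56, 0.48 and 0.56, and fell by 1.68 ± 0.28 (adjusted p = 0.000687). The groups overlapped in neither.

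A promoter was found for 6492 of the 7909 genes tested, and its 300 bases were searched on both strands. E2F was searched as TTTCCCGC, TTTGGCGC, TTTCGCGC and TTTGCCGC, CHR as TTTGAA and TTCGAA, and with these the CCAAT box as CCAAT and a sterol element as TCACCCCA. None of these contains another, but matches can share letters, as the E2F match at 17 and a CCAAT do in Mcm7. An E2F match was found in 4.57% of promoters of genes tested, 9.62% of those of genes called at least 2-fold lower and 1.65% of those at least 2-fold higher. Among replication genes 9 of 28 promoters held it, or 32.1%. A CHR match was found in 13.4% of promoters of genes tested, 25.3% for at least 2-fold lower and 10.3% for at least 2-fold higher. Among mitosis genes 28 of 36 held it, or 77.8%, and CCAAT likewise 28 of 36, against 39.5% of genes tested. CHR and CCAAT together stood in 69.4% of mitosis promoters and 5.59% of all. Over the 27025 promoters in the RefSeq table, 2.32% held E2F, 19.4% CHR, 37.9% CCAAT and 1.47% the sterol element. A match describes letters and was not tested as a binding site.

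**Figure D4:**
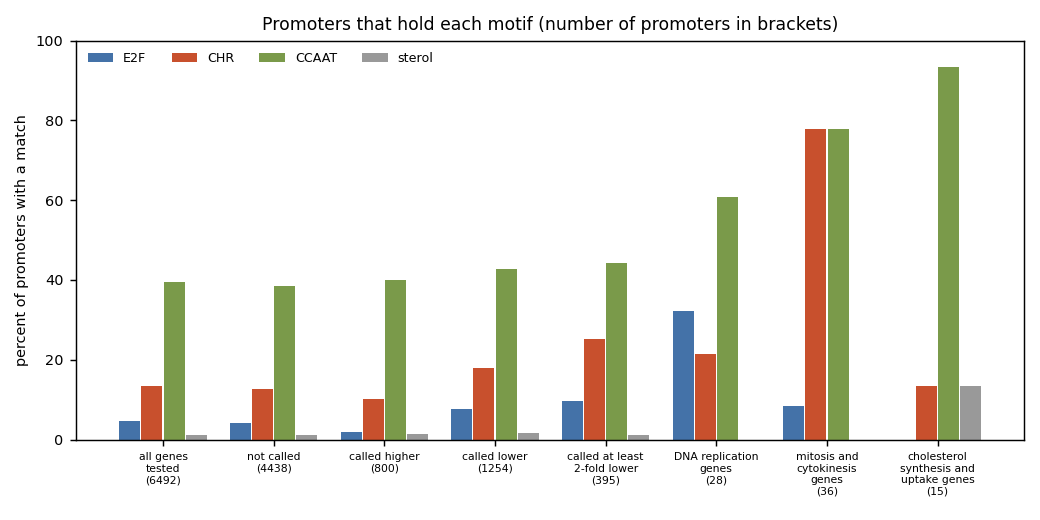
Percent of promoters with at least 1 match on either strand, for 4 motifs and 8 sets of genes, with the number of promoters in brackets. The E2F bar is tallest for replication genes (32.1%), the CHR bar for mitosis genes (77.8%) and the CCAAT bar for cholesterol genes (93.3%).

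Repair genes fell in larger number than they rose. Of 27 repair genes tested, 16 fell and 2 rose (66.7% called, against 32.1% of all genes), with a median of -0.51. The falls were largest in Chek1, the kinase of stalled forks (-2.03 ± 0.44), the exonuclease Exo1 (-1.90 ± 0.41), the uracil glycosylase Ung (-1.87 ± 0.41) and the recombination factors Rad54l (-1.75 ± 0.32) and Rad51ap1 (-1.65 ± 0.38). Fanci, Msh6 and Xrcc1 fell by 1.14 ± 0.17, 1.21 ± 0.21 and 1.02 ± 0.18. Xpa and Xpc, of nucleotide excision repair, rose by 0.56 and 0.43, and 0 repair genes were called higher without undifferentiated replicate 2, 4 or 5 or 24 h replicate 1, 2 or 4. Of 17 p53 targets tested, 4 fell and 1 rose, a share of 29.4% called that is below that of all genes. Besides Cdkn1a, the BH3-only gene Pmaip1 fell by 1.13 ± 0.22, the Akt inhibitor Phlda3 by 1.25 ± 0.30 and Plk2 by 1.15 ± 0.34, while Sesn1 rose by 0.96 ± 0.30. Mdm2 was not called, at -0.60.

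Chromatin genes moved both ways. Of 25 DNA methylation, Polycomb and histone deacetylase genes tested, 7 fell and 4 rose (44% called, against 32.1% of all genes). Hells, a remodeller needed for DNA methylation, had levels of 3.48, 3.87, 4.31, 4.02 and 4.28 and then 0.67, 2.01, 1.97, 0.88 and 0.97, and fell by 2.69 ± 0.46 (adjusted p = 0.00081). Uhrf1, which guides the maintenance methylase, fell by 2.30 ± 0.52, and that methylase, Dnmt1, by 1.21 ± 0.31. Dnmt3a, which methylates new sites, rose by 0.50 ± 0.14, and Dnmt3b was at 0.022. Of the Polycomb complex 2, Ezh2 fell by 0.44 ± 0.16, Eed by 0.65 ± 0.16 and Suz12 by 0.99 ± 0.24, while Ezh1 rose by 0.65 ± 0.15. Sirt2, a deacetylase abundant in myelinating cells, rose by 2.63 ± 0.49 (adjusted p = 0.0012). Of 6 high mobility group genes, Hmgb2 fell by 1.35 ± 0.26 and Hmgn5 by 0.72 ± 0.18, and Hmga2 was at -1.25 and not called. The 33.3% called is near the 32.1% of all genes.

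Genes of ribosome assembly fell in part. Of 25 nucleolar ribosome biogenesis genes tested, 13 fell and 0 rose (52% called, against 32.1% of all genes), with a median of -0.68. Nop56, of the box C/D particles that modify ribosomal RNA, had levels of 5.33, 5.47, 5.47, 5.58 and 5.67 and then 4.62, 4.96, 4.55, 4.40 and 4.24, without overlap. It fell by 0.95 ± 0.22 (adjusted p = 0.00413). Its partner Nop58 fell by 1.55 ± 0.40, Gar1 and Nhp2 of the box H/ACA particles by 0.89 and 1.07, and Gnl3 by 0.82 ± 0.19. Without suffix C, 1 of the 25 was called, and with runs as a fixed block 20. Over all 7909 genes tested, these settings called 612 and 1866 lower. None of 25 cytosolic ribosomal protein genes was called, with a median of 0.30 and by suffix (A, B, C) -0.34, 0.38 and 0.27. By limma, 2 of the 25 had an unadjusted p under 0.05, both lower, and with runs as a fixed block 2 rose and 2 fell. Of 35 splicing genes, 4 fell (U2af1 at -0.73, Sf3a3 at -0.71, Snrpb at -0.60 and Snrpa1 at -0.57) and 5 rose, among them Ptbp2, the neural splicing repressor, by 0.57 ± 0.21. The 25.7% called is below that of all genes. The count of rises was 0 without 24 h replicate 5 and 1 with median centring, and 7 fell with runs as a fixed block.

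Among genes of amino acid supply, 8 of 23 tested fell and 1 rose (39.1% called, against 32.1% of all genes). Mthfd2, of mitochondrial folate metabolism, fell by 1.83 ± 0.41, the neutral amino acid carrier Slc1a4 by 1.31 ± 0.26, the serine enzymes Shmt1 and Shmt2 by 0.79 and 0.96 and Asns by 0.85. Atf4, their regulator, was not called, at -0.40. Among chaperones, in mitochondria, Hspd1, Hspe1 and Hspa9 fell by 0.74, 0.93 and 0.69. Hspb8, Hspa2 and Cryab rose by 2.96, 1.62 and 1.39, and the subunits of the chaperonin that folds actin and tubulin were not called. In all, 4 of 27 cytosolic and mitochondrial chaperones rose and 6 fell (37.0% called, near that of all genes), and 1 fell with median centring. Of 20 ER chaperones 2 rose (Dnajb9 by 0.71, Calr by 0.66) and 3 fell (Pdia6 at -0.71, Manf at -0.52, Dnajb11 at -0.43). The 25% called is below the 32.1% of all genes, and the groups overlapped in all 3 falls. Leaving out single arrays left 1 to 2 falls, and with median centring none of the 3 was called lower. Of 31 proteasome subunits 1 rose and 4 fell, and the 16.1% called is below that of all genes. The falls numbered 1 to 4 without single arrays, 0 with median centring and 7 with runs as a fixed block.

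Cholesterol synthesis fell in part. Of 19 genes tested, 10 fell and 0 rose (52.6% called, against 32.1% of all genes), with a median of -0.77. Within suffixes A and B the median was -0.97 and -0.81, and within suffix C it was -0.012. The late steps Dhcr7, Nsdhl and Ebp had the smallest p of the list. Dhcr7 had levels of 5.66, 5.12, 5.13, 5.39 and 4.52 and then 3.53, 4.11, 4.12, 4.32 and 3.18, and fell by 1.31 ± 0.23 (adjusted p = 0.000876). Nsdhl fell by 1.11 ± 0.19 and Ebp by 0.97 ± 0.16, and in none of the 3 did the groups overlap. Cyp51 fell by 1.06, Sc5d by 0.91 and the squalene enzymes Sqle and Fdft1 by 0.61 and 0.56. Hmgcs1, near the start of the pathway, was at 0.44 and not called. The count was 6 without undifferentiated replicate 3 or 4 or 24 h replicate 1 or 5. Srebf2, the master regulator of the pathway, had levels of 4.44, 4.43, 4.74, 4.73 and 3.48 and then 3.65, 3.98, 4.09, 3.29 and 2.66, with overlapping groups, and fell by 0.83 ± 0.29 (adjusted p = 0.0363). Its RefSeq promoter (GRCm38.p6, chr15:82147019-82147318, plus strand, window as above) is shown because it was the called gene of the list with a sterol match, in capitals, at -162.
Srebf2: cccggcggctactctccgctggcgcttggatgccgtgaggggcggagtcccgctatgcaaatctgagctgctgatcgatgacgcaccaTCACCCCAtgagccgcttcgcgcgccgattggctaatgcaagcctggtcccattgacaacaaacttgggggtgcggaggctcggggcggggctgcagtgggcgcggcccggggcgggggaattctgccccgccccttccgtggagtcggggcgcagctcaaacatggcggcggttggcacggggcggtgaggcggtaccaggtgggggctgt
Of the 15 promoters found for this list, 2 held the sterol letters, against 1.19% of genes tested, and 14 held CCAAT, or 93.3%.

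Of 26 fatty acid and sphingolipid genes tested, 5 rose and 4 fell, and the 34.6% called is near the 32.1% of all genes. The rises held Ugt8a, Fa2h and Gal3st1, which make the galactolipids of myelin, by 3.11 ± 0.58, 2.14 ± 0.44 and 2.18 ± 0.50. The desaturases Fads1 and Fads3 rose by 0.87 and 0.66, while the ganglioside enzyme St8sia1 fell by 0.77 ± 0.14 and the fatty acid synthase Fasn by 0.44 ± 0.15. In glycolysis and the hypoxia response, 3 of 23 rose and 3 fell (26.1% called), and 6 fell with runs as a fixed block. The muscle-type isoforms Aldoa and Pkm fell by 0.81 ± 0.23 and 1.0 ± 0.27, and Aldoc, the aldolase of astrocytes, rose by 0.93 ± 0.35. Bnip3, a mitophagy receptor, rose by 1.29 ± 0.21. Adm had levels of 2.96, 3.66, 3.04, 5.36 and 5.24 and then 0.69, 1.03, 1.20, 0.24 and 0.27, with undifferentiated replicates 4 and 5 the highest, and fell by 3.36. Of 44 oxidative phosphorylation genes, 4 fell (Ndufa5 at -0.80, Sdhd at -0.75, Atp5g1 at -0.73 and Sdhc at -0.67) and 40 were not called, a smaller share than the 32.1% of all genes. With quantile normalisation 16 were called lower, and with runs as a fixed block 7 fell and 4 rose.

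Genes of resting cells and of autophagy rose in part. Of 24 FoxO targets, quiescence and autophagy genes tested, 13 rose and 0 fell, against 12.7% of all genes called higher. In 12 the groups did not overlap, against 25.1% of all genes. The median was 0.57 and by suffix (A, B, C) 0.92, 0.42 and 0.62. Txnip, which binds thioredoxin and limits glucose uptake, had levels of 0.64, 0.42, 0.76, 0.38 and 0.60 and then 2.96, 2.11, 2.51, 2.52 and 2.76. It rose by 2.01 ± 0.37 (adjusted p = 0.00117), 4.03-fold, without overlap. Its undifferentiated mean of 0.56 lay close to the filter level of 0.51, near the floor of the array, which limits what the fold can say. Wipi1, which works on the forming autophagosome, had levels of 3.28, 2.62, 2.48, 2.12 and 2.43 and then 4.58, 3.66, 4.20, 4.37 and 4.04, and rose by 1.59 ± 0.25. The starting kinases Ulk1 and Ulk2 rose by 0.69 and 1.18, the membrane proteins Map1lc3a, Map1lc3b, Gabarapl1 and Gabarapl2 by 0.76, 1.09, 0.99 and 0.51, the cargo receptor Sqstm1 by 0.52 and Becn1 by 0.42. Foxo1 rose by 0.63 ± 0.14, and Sesn1 and Sesn3 by 0.96 and 1.02. Foxo3 was at 0.46 (adjusted p = 0.0729) and Irs2 at -1.08, neither called. Without suffix C, 7 of the 24 were called higher, as were 516 of all 7909 genes tested.

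Of 36 lysosomal genes tested, 5 rose and 5 fell, and the 27.8% called is below the 32.1% of all genes. With runs as a fixed block 13 rose, as did 1211 of all 7909 genes tested. The protease Ctsc had levels of 5.88, 5.89, 6.13, 6.29 and 6.43 and then 3.45, 3.20, 3.91, 3.65 and 4.09, and fell by 2.46 ± 0.23 (adjusted p = 1.63e-05). It stayed called with the actin ratio as a covariate. The hydrolases Glb1 and Gla fell by 1.06 and 0.66, and the proteases Ctsh and Ctsz by 1.22 and 0.94. Ctsl rose by 1.29, Scarb2 by 1.19, Lgmn by 0.94 and Tpp1 by 0.62. With the suffix as a block 14 were called higher, as were 1434 of all 7909 genes tested. The metallothioneins Mt1 and Mt2, which bind zinc and copper, rose by 2.21 ± 0.51 and 2.26 ± 0.48. Mt2 had levels of 8.71, 7.55, 7.80, 6.75 and 6.75 and then 9.80, 8.83, 9.18, 10.20 and 10.84, and the gap was narrow between undifferentiated replicate 1 and 24 h replicate 2. Of 25 metallothionein, antioxidant and glutathione genes, 4 rose and 4 fell, and the 32.0% called is near that of all genes. Catalase (Cat) and Prdx2 rose by 0.71 and 0.70, and Prdx4, Gpx3, Srxn1 and Prdx3 fell by 0.81, 0.60, 0.58 and 0.41. Of 14 clock genes (28.6% called), Dbp rose by 1.72 ± 0.29 and Per3 by 0.90 ± 0.18, and Per2 and Hlf fell by 0.82 and 0.54.

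Myelin genes were among the most raised. Of 21 tested, 15 rose, 12 of them at least 2-fold, 1 fell and 5 were not called, with 2 more below the filter. That is 76.2% called, against 32.1% of all genes. The median was 1.63, and by suffix (A, B, C) 0.86, 1.44 and 1.99. Cnp, an enzyme of myelin membranes, had levels of 6.98, 7.15, 7.22, 6.16 and 6.40 and then 8.08, 9.06, 8.41, 10.02 and 9.82, without overlap, and rose by 2.29 ± 0.47 (adjusted p = 0.00236). Ugt8a, which makes galactosylceramide, had levels of 3.99, 4.24, 5.29, 3.70 and 2.61 and then 5.99, 7.25, 6.75, 7.55 and 7.82, and rose by 3.11, 8.62-fold. For both genes and for Mbp the 24 h array of suffix A was the lowest of its group and the arrays of suffix C the highest. The within-suffix differences of Mbp were 2.11, 2.84 and 4.98 for A, B and C. Mag, an adhesion protein of the inner myelin sheath, rose by 2.36 ± 0.61, and Mobp by 1.84 ± 0.51. Myrf, the factor that switches on myelin genes, rose by 2.19 ± 0.44. Cldn11, of myelin tight junctions, rose by 2.10 ± 0.46, and Lpar1 by 1.63 ± 0.42. Car2, the carbonic anhydrase of glia, went the other way, with levels of 6.59, 6.25, 5.80, 6.58 and 6.84 and then 4.13, 3.97, 4.46, 3.98 and 3.98. It fell by 2.31 ± 0.28 (adjusted p = 8.81e-05). Aspa, Gpr37, Gsn and Qdpr were not called, with differences of 0.063, -0.062, -0.22 and -0.21. Without any single array 15 were called higher, and without suffix C 9, Mbp not among them. In that last setting 516 of all 7909 genes tested were called higher.

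Of 12 oligodendrocyte lineage genes tested, 4 rose and none fell: Sox10, Pdgfra, Tcf7l2 and Bmp4, a BMP ligand whose levels are given with its pathway. The 33.3% called is near the 32.1% of all genes, where 12.7% were higher. Sox10, which directs the lineage, had levels of 3.29, 3.15, 3.49, 1.62 and 0.80 and then 4.56, 5.50, 4.93, 5.94 and 4.70, with undifferentiated replicates 4 and 5 the lowest. It rose by 2.66 ± 0.56 (adjusted p = 0.00283). Pdgfra, the PDGF receptor of oligodendrocyte progenitors, had levels of 3.97, 3.44, 5.23, 2.15 and 1.21 and then 5.53, 6.56, 6.11, 5.34 and 5.24. The gap was small between undifferentiated replicate 3 and 24 h replicate 5, and Pdgfra rose by 2.55 ± 0.57 (adjusted p = 0.00388). Tcf7l2, a Wnt effector expressed as the cells differentiate, rose by 0.80 ± 0.22. Olig1 and Olig2, which mark the whole lineage, were at 0.37 and 0.063, and Cspg4 (NG2) and Nkx2-2 at -0.30 and 0.39, none of them called. Olig2 levels were 6.03, 6.48, 5.12, 6.77 and 5.83 and then 5.86, 6.67, 6.28, 6.01 and 5.73, with the groups interleaved, and its sign turned without undifferentiated replicate 3 or 24 h replicate 2 and with runs as a fixed block.

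Astrocyte genes rose in larger number than they fell. Of 27 tested, 14 rose, 3 fell and 10 were not called, or 63% called against 32.1% of all genes. The median was 1.08 and by suffix (A, B, C) 0.61, 0.87 and 1.58. Gfap had levels of 5.40, 4.45, 4.44, 1.10 and 2.05 and then 6.87, 6.31, 6.62, 7.56 and 6.83. Undifferentiated replicates 4 and 5 were lowest, and all 24 h arrays lay higher (adjusted p = 0.00196). Aqp4, the water channel of astrocyte endfeet, had levels of 7.19, 7.19, 7.28, 5.20 and 6.16 and then 8.51, 8.26, 8.69, 9.30 and 9.88, and rose by 2.32 ± 0.44 (adjusted p = 0.00147). Entpd2, an enzyme that breaks down extracellular ATP, had levels of 0.54, 0.58, 0.90, 0.34 and 0.042 and then 3.98, 2.67, 3.03, 3.44 and 2.99. It rose by 2.74 ± 0.30 (adjusted p = 6.57e-05), 6.67-fold, and was the astrocyte gene still called with the actin ratio as a covariate. Its undifferentiated mean of 0.48 lay under the filter level of 0.51, near the floor of the array, which limits what the fold can say. The secreted proteins Clu and Apoe rose by 2.37 ± 0.37 and 1.79 ± 0.63, glutamine synthetase (Glul) by 1.49 ± 0.17, the gap junction gene Gja1 by 1.45 ± 0.33, S100b by 1.49 ± 0.42 and Ndrg2 by 2.02 ± 0.48. Cd44, the hyaluronan receptor, fell by 2.57 ± 0.59, Acsbg1 by 0.88 ± 0.13 and the glutamate transporter Slc1a2 by 0.45 ± 0.17. Slc1a3, the other main glial glutamate transporter, had levels of 7.24, 7.46, 7.34, 7.07 and 7.48 and then 7.08, 6.86, 7.49, 7.14 and 7.89. They overlapped, the difference was -0.025 and its probe sets disagreed in sign. Aldh1l1 and Kcnj10 were not called, at 0.25 and 0.067. Without suffix C, 6 rose, as did 516 of all 7909 genes tested.

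Early neuronal genes rose in part. Of 22 tested, 8 rose and 1 fell (40.9% called, against 32.1% of all genes), with 8 more below the filter. Dcx, the doublecortin of migrating neuroblasts, had levels of 1.42, 1.09, 1.67, -0.31 and -0.39 and then 2.84, 2.82, 2.29, 1.95 and 2.06. All 24 h arrays were higher, with undifferentiated replicates 4 and 5 far below the rest, and Dcx rose by 1.69 ± 0.36 (adjusted p = 0.00275). Dpysl3, of growth cones, rose by 1.92 ± 0.29, Mapt by 1.46 ± 0.45, Ncam1 by 1.02 ± 0.14 and Sox4 by 1.05 ± 0.25. Tubb3, the neuronal tubulin, rose by 0.67 ± 0.21 with overlapping groups (adjusted p = 0.022), a call that ended without undifferentiated replicate 5 or 24 h replicate 1. Sox11 fell by 0.80 ± 0.26, a call that ended without undifferentiated replicate 4 or 5 or 24 h replicate 1, 4 or 5. The synaptic genes Snap25 and Syp were at 0.07 and 0.035 and Gad1 at -0.85, none called. The count of rises was 5 without undifferentiated replicate 5 and 4 when probe sets were averaged. Of 8 genes of ependymal and motile cilia (62.5% called), 4 rose, led by Tppp3 (1.56 ± 0.19), the ciliogenesis factor Foxj1 (1.51 ± 0.25) and Rfx2 (1.02 ± 0.22). Mns1 fell by 0.99 ± 0.19.

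Stem and progenitor genes split. Of 17 tested, 3 rose and 5 fell (47.1% called, against 32.1% of all genes). Nes, the intermediate filament nestin, had levels of 5.99, 6.52, 6.12, 6.68 and 6.38 and then 4.19, 4.78, 4.88, 4.13 and 3.47, and fell by 2.05 ± 0.37 (adjusted p = 0.000975). Sox2, a factor that keeps the stem state, had levels of 7.16, 7.45, 7.59, 7.51 and 7.99 and then 8.20, 8.43, 8.26, 8.81 and 9.14, without overlap. It rose by 1.03 ± 0.24 (adjusted p = 0.00466). The RNA-binding protein Msi1 rose by 1.31 ± 0.22 and Prom1 by 1.03 ± 0.32. Tnc, a matrix protein of the stem cell niche, fell by 2.26 ± 0.74, and Hes1, Egfr and Ccnd2 fell as given with their pathways. Fabp7, Pax6, Notch1 and Bmi1 were not called, at 0.54, 0.60, 0.29 and 0.12. The falls numbered 3 without undifferentiated replicate 5.

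**Figure D5:**
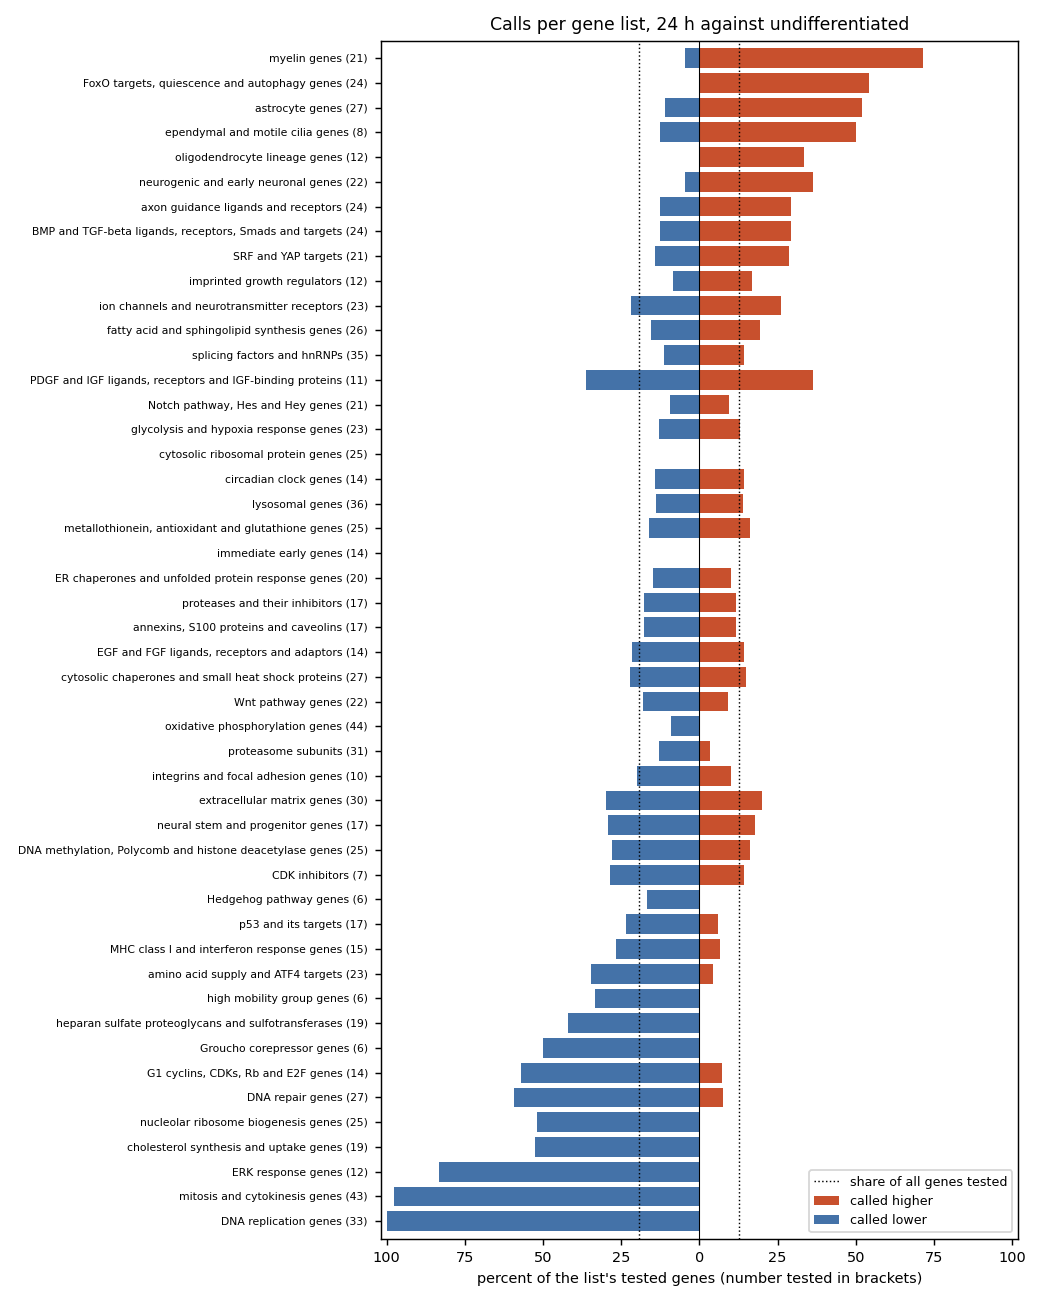
For each of 48 gene lists, the percent of tested genes called higher (orange, to the right) and lower (blue, to the left) at 24 h. The dotted lines mark the shares over all genes tested, 12.7% higher and 19.4% lower, and the lists are ordered by the difference of the 2 shares, from replication at the bottom to myelin at the top.

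In the BMP and TGF-beta group, 7 of 24 tested genes rose and 3 fell, with 14 more below the filter. That is 41.7% called, against 32.1% of all genes. BMPs are secreted factors that favour astrocytes and act through Smads on the Id genes. Of the ligands, Bmp4 had levels of 1.59, 1.54, 2.05, 0.43 and -0.19 and then 2.69, 3.88, 3.35, 4.30 and 4.12, and rose by 2.59 ± 0.61 (adjusted p = 0.00498). Bmp7 moved the other way, with 2.77, 2.87, 3.04, 3.48 and 3.06 and then 0.53, 1.10, 0.87, 0.68 and 0.61, and fell by 2.29 ± 0.24 (adjusted p = 4.89e-05). Of the receptors, Bmpr1a rose by 0.85 ± 0.19 and Tgfbr2 fell by 0.87 ± 0.24. Smad2 fell by 0.91 ± 0.20, and Smad1 and Smad4 were not called, at 0.46 and 0.68. Of the targets, Id2, Id3 and Id4 rose by 1.46 ± 0.40, 2.09 ± 0.50 and 3.52. Id1 had levels of 4.31, 3.70, 4.18, 4.20 and 4.68 and then 5.48, 5.27, 5.66, 5.72 and 5.47, without overlap, yet was not called (1.31, adjusted p = 0.109), and it was called when the 12 h arrays were left out of the fit. The rises numbered 13 with quantile normalisation and 12 with the suffix as a block. In these settings 1590 and 1434 of all genes tested were called higher, against 1003 in the main fit.

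Of 21 Notch pathway genes tested, 2 rose and 2 fell, or 19% called against 32.1% of all genes. Hes1, a repressor that Notch switches on, had levels of 2.14, 2.39, 2.25, 2.35 and 3.04 and then 0.95, 0.87, 0.62, 0.51 and 0.59, and fell by 1.72 ± 0.25 (adjusted p = 0.000295). Lfng, which modifies the receptor, fell by 1.48 ± 0.30, and Hey1 rose by 1.09 ± 0.20. Hes5 was at 0.55 and Dll1 at 0.70, neither called. Of 6 genes of the Groucho family, which holds corepressors, 3 fell and 0 rose, or 50% called against 32.1% of all genes. Tle6 had levels of 3.35, 3.39, 2.68, 4.10 and 3.81 and then 0.77, 0.85, 0.89, 1.10 and 0.84, and fell by 2.58 ± 0.21 (adjusted p = 3.04e-06), and it stayed called with the actin ratio as a covariate. Tle2 had levels of 1.93, 3.02, 2.01, 3.30 and 2.78 and then 0.30, 0.37, 0.14, 0.20 and 0.088, close to the floor of the array at 24 h, and fell by 2.39 ± 0.23. Tle5 fell by 1.42 ± 0.33, and Tle1, Tle3 and Tle4 were at 0.58, 0.30 and 0.63, not called.

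Of 22 Wnt pathway genes tested, 2 rose and 4 fell, and the 27.3% called is below that of all genes. Wnt5a fell by 1.16 ± 0.24 and Wnt5b rose by 0.99 ± 0.29. The receptor Fzd9 fell by 1.32 ± 0.42, the secreted inhibitor Sfrp2 by 1.01 ± 0.24 and the inhibitor Dact1 by 1.85 ± 0.42. The repressor Tcf7l1 rose by 0.94 ± 0.22, and the target Axin2 was not called, at -0.46. In the Hedgehog group 1 of 6 tested genes fell, or 16.7% called, also below that of all genes. It was Gas1, by 0.69 ± 0.22, a call lost without undifferentiated replicate 2 or 3 or 24 h replicate 4 or 5 and with runs as a fixed block. Ptch1 and Gli2 were at 0.79 and 0.32. The ligand Dhh, named among the largest falls and outside the list, had levels of 2.78, 1.68, 3.11, 3.92 and 2.40 and then -0.055, 0.028, 0.077, -0.11 and -0.18. All 24 h arrays were at the floor, and Dhh fell by 2.83 ± 0.58 (adjusted p = 0.00236).

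Of 11 PDGF and IGF genes tested, 4 rose and 4 fell (72.7% called, against 32.1% of all genes). Pdgfrb, the receptor best known from pericytes, had levels of -0.093, -0.52, 0.30, -0.42 and -0.49 and then 2.03, 1.14, 2.01, 2.05 and 1.39, and rose by 1.97 ± 0.23 (adjusted p = 7.96e-05). The ligand Pdgfc fell by 1.06 ± 0.24. Among proteins that bind IGFs, Igfbp2, Igfbp3 and Igfbp4 fell by 1.74 ± 0.29, 2.68 ± 0.70 and 3.84, and Igfbp5 and Igfbp7 rose by 1.26 ± 0.47 and 0.47 ± 0.17. Igf1r was at -0.042 and not called. The rises numbered 2 without undifferentiated replicate 2, 4 or 5 or 24 h replicate 1, 3 or 4. Of 12 imprinted growth regulators (25% called), Mest fell by 1.76 ± 0.34, while Plagl1 and Impact rose by 1.10 ± 0.16 and 0.60 ± 0.19. Impact was not called without undifferentiated replicate 5 or 24 h replicate 1 or 5, and with runs as a fixed block 4 of the list rose.

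Targets of SRF and YAP, which answer to actin tension and adhesion, moved both ways. Of 21 tested, 6 rose and 3 fell (42.9% called, against 32.1% of all genes). Acta2, the smooth muscle actin, had levels of 2.91, 2.49, 2.68, 3.26 and 2.19 and then 4.28, 6.23, 6.94, 5.92 and 5.31, with 24 h replicate 1 the lowest of its group, and rose by 3.03 ± 0.72 (adjusted p = 0.00518). The myosin light chain Myl9 rose by 1.77 ± 0.41, the cross-linker Actn1 by 1.57 ± 0.38, and the YAP targets Amotl2 and Lats2 by 1.54 ± 0.23 and 0.74 ± 0.22. Tagln2 fell by 2.34 ± 0.44, Tpm4 by 0.96 and the focal adhesion protein Zyx by 0.86, and 1 fell without undifferentiated replicate 2 or 4 or 24 h replicate 1 or 5. Ccn1 and Ccn2, secreted YAP targets, were at 0.34 and 1.01 and not called. Without suffix C, 2 rose and Acta2 was not called. In that setting 516 of all 7909 genes tested rose.

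Matrix genes moved both ways. Of 30 matrix genes tested, 9 fell and 6 rose (50% called, against 32.1% of all genes), with 15 more below the filter. Of the laminins of the basement membrane, Lama1 fell by 1.19 ± 0.16 and Lama5, Lamb1 and Lamc1 fell by 1.07, 1.42 and 0.91, while Lama2 rose by 0.54. Fbln2 had levels of 4.16, 4.17, 4.82, 3.45 and 2.88 and then 0.61, 0.90, 1.39, 0.51 and 0.27, and fell without overlap (adjusted p = 0.00019). Fbln1 fell by 1.36 and Col18a1 by 1.62. The proteoglycans Vcan and Ncan rose by 0.85 and 0.70, and Ogn, another proteoglycan, had levels of 0.43, 0.22, 0.35, -0.37 and 0.044 and then 2.57, 1.54, 2.79, 2.20 and 2.16. Ogn rose by 2.12 ± 0.28 (adjusted p = 0.000158). Of 10 integrin and focal adhesion genes (30% called), Itgav and Itgb5, which pair with each other, fell by 1.23 ± 0.20 and 1.53 ± 0.31. Pxn rose by 0.72 ± 0.24, a call lost when probe sets were averaged or without undifferentiated replicate 1, 2 or 3 or 24 h replicate 1, 4 or 5. Among 17 proteases and inhibitors (29.4% called) 3 fell, and 6 with runs as a fixed block. Adam12 and Adam15 fell by 3.11 and 0.74, and the inhibitors divided. Timp4 fell by 2.23 ± 0.31 and Timp2 rose by 1.64 ± 0.16, from 4.68, 4.34, 4.54, 3.88 and 4.14 to 5.96, 5.61, 6.27, 6.19 and 5.74 (adjusted p = 1.63e-05). Timp2 stayed called with the actin ratio as a covariate.

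Heparan sulfate chains hold FGFs on their receptors, and their genes fell where they were called. Of 19 tested, 8 fell and 0 rose, or 42.1% called against 32.1% of all genes. Median differences by suffix (A, B, C) were -0.36, -0.50 and -0.44. The core proteins Sdc1 and Sdc3 fell by 1.20 ± 0.25 and 1.51 ± 0.30, the chain polymerase Ext1 by 1.01 and the sulfotransferases Hs2st1 and Hs6st2 by 0.72 and 1.31. Sulf2, which removes sulfates outside the cell, had levels of 5.41, 5.79, 5.53, 6.26 and 5.99 and then 4.09, 4.85, 4.91, 5.05 and 4.44, and fell by 1.13 ± 0.21 (adjusted p = 0.00122). Of 17 annexin, S100 and caveolin genes (29.4% called), S100a6 rose by 1.93 ± 0.47, and Anxa3, S100a10 and Cav2 fell by 2.41 ± 0.70, 1.66 and 0.99.

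Surface and membrane genes moved both ways. Of 24 axon guidance genes tested, 7 rose and 3 fell (41.7% called, against 32.1% of all genes), with 21 more below the filter. Plxnb3, a plexin of oligodendrocytes, rose by 2.17 ± 0.44, Epha5 by 1.43 ± 0.46, Sema4g by 0.94 ± 0.20 and Efnb3 by 0.72 ± 0.16, and Sema4b fell by 1.35 ± 0.33. Of 23 ion channel and receptor genes tested, 6 rose and 5 fell (47.8% called), with 13 more below the filter. The GABA receptor subunits moved apart: Gabrb1 rose by 2.28 ± 0.30 and Gabrg1 fell by 0.89 ± 0.16. The potassium channels Kcnn2 and Kcnk2 rose by 2.30 ± 0.57 and 1.83 ± 0.33, and Cacng5 and Kcnk1 fell by 1.69 ± 0.47 and 1.21 ± 0.28. Of 15 genes of MHC class I and the interferon response, 4 fell (Ifitm3 at -1.33, Gbp3 at -1.19, H2-K1 at -0.62 and Tap1 at -0.46) and Ifit3 rose by 0.84. The 33.3% called is near the 32.1% of all genes. The falls numbered 1 without 24 h replicate 5, which ended the call of Ifitm3, and 2 without undifferentiated replicate 4 or 5 or 24 h replicate 2.

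Some genes crossed the expression filter level, a log2 level of 0.51, on every array. From at or below it on all undifferentiated arrays to above it on all 24 h arrays went 31 genes. They were picked for that pattern, so their values are a description. The largest were Ogn, Pdgfrb, Ahnak, Lgi4 and Dnajb13. Ahnak, a large scaffold protein, had levels of -0.44, -0.075, 0.19, -0.34 and -0.14 and then 1.83, 1.35, 2.17, 1.86 and 1.55. It rose by 1.91 ± 0.16 (adjusted p = 3.04e-06) and stayed called with the actin ratio as a covariate. Lgi4, a secreted glial protein, rose by 1.66 ± 0.23 and Dnajb13, of sperm and cilia axonemes, by 1.60 ± 0.19. The other way went 39 genes. The largest were Dhh, Tle2, Nptx2, Cd93 and Lmcd1. Nptx2, a secreted pentraxin, fell by 2.25 ± 0.29, the surface receptor Cd93 by 2.09 ± 0.34 and Lmcd1 by 1.5 ± 0.19. The median spread between arrays was 0.083 over the dimmest probe sets (lowest decile) and 0.3 over those of the sixth decile.

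Markers of cells that the culture could hold besides neural cells were mostly below the filter. Of 15 microglia and macrophage markers, Cd14 was above it and fell by 0.70 ± 0.15, and the other 14, Aif1, Csf1r and Ptprc among them, never rose above it on any array used here. Of 10 endothelial markers 0 were above the filter or on any array above its level. Of 11 pericyte and fibroblast markers Pdgfrb was above it, while Col1a1, Col1a2, Rgs5 and Dcn were never above its level. The labels' protocol also names blood mononuclear cells, and of 10 lymphocyte markers 0 passed the filter and 7 were never above its level. The neural markers were present. All 9 stem and progenitor markers, 6 of 7 oligodendrocyte markers and 6 of 6 astrocyte markers passed, as did 3 of 8 markers of mature neurons. The summed linear level of the oligodendrocyte markers ran from 123 to 268 on the undifferentiated arrays and from 455 to 2117 at 24 h, and that of the astrocyte markers from 470 to 889 and from 999 to 2318, neither overlapping. For the mature neuron markers the range was 11.2 to 23.7 and then 9.32 to 16.7, with overlap. For the stem and progenitor markers it was 1583 to 3284 and then 2028 to 5524, also with overlap. A sum weighs the brightest markers most. Of the markers that passed, all 6 for oligodendrocytes rose, and of the 6 for astrocytes 3 rose and 1 fell. Of the 9 for stem and progenitor cells 3 rose and 3 fell, and of the 3 for mature neurons 0 were called. Over all genes tested, 12.7% were called higher and 19.4% lower, or 32.1% in either direction.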

How the data were processed

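An Affymetrix mouse array with 22690 probe sets was used for 15 samples, 1 each. The deposited table holds log10 values made by the authors with MAS5, per the submitters' processing notes. Its version and scaling are unstated here, and the log base was read from the hybridisation spike-ins, which rose by 1.07 ± 0.0655 per log10 of concentration (SD over 15 arrays). Values were multiplied by 3.32 to give log2, without further normalisation. Per gene the probe set of the highest mean was used. The test took the 7909 of 12393 genes whose mean lay above the 40th percentile (0.51, log2). Of 22626 probe sets other than controls, 20380 had 1 symbol in the platform annotation, 691 had several and 1555 had none here, and the last 2 kinds were not used. Of 954 called genes with several probe sets above the filter, 105 had probe sets of opposite sign.

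The limma fit (3.58.1, R 4.3.3) held a mean for each of the 3 groups and a variance trend, with Benjamini-Hochberg adjustment over all genes tested. It was tested on simulated data. In this fit the 12 h arrays share in the variance only, but they also entered the means that chose the probe sets and genes tested. In the alternative fits with blocks or the actin ratio they share in those terms too. Depth has no counterpart on arrays, and the number of arrays limits the precision. No 2 of the 10 arrays compared held identical values. Their differences had standard deviations over genes of 0.277 or more, against 0.15 for a pair of 12 h arrays.

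The comparison, the 48 gene lists and the markers were chosen with earlier results of these data known. The lists name 1259 genes, 955 of them tested. Lists were described by counts, with no test. Genes named by rule were the 15 largest rises and falls without overlap between groups, the 3 called members of each list with the smallest p, fixed markers, the 5 largest crossing the filter each way and the promoters. Other list members were named as examples by role, after values were seen. Promoters come from RefSeq (GRCm38.p6), the first listed per gene. Alternatives changed the scale, normalisation, filter, probe sets, variance model, arrays, suffix, runs of codes (random block, and a fixed block added after seeing the data) and the actin ratio. Figures were drawn with matplotlib 3.10.9.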

Additional observations from a re-analysis of the deposited data

Results flagged for a closer look

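Among 336 groups of 5 arrays tested over the 168 named genes, 13 held an array that stood apart by Dixon's test, or 3.87%, where chance gives about 1 in 20. In undifferentiated cells, replicate 1 was lowest and apart in Rbl1 (log2 level 3.35), Plk4 (3.93) and Msh6 (4.05), which serve cell division and mismatch repair. Replicate 4 was lowest and apart in Tppp3 (0.0067) and Dnajb13 (-0.22), both near the floor of the array. Replicate 5 was highest and apart in Hes1 (3.04). At 24 h, replicate 5 was lowest and apart in Xrcc1 (1.40), U2af1 (5.15) and Tcf7l1 (3.52). Replicate 4 was lowest in Psmd7 (3.90) and highest in Ebp (2.92), and replicate 2 was highest in Snrpb (6.27) and lowest in Gabrb1 (3.10). The flags were spread over 6 of the 10 arrays, with at most 3 on any of them.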

How the results depend on the processing

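Of 162 called named genes, all stayed called in the same direction with 1 added to the linear values, no filter, no variance trend, 10 arrays only, the suffix as a block and the runs of codes as a random block, 161 with quantile normalisation and 156 with median centring. Without suffix C 122 stayed called, and with the actin ratio as a covariate 7, while leaving out single arrays kept 157 to 161. The count of genes higher was 1590 with quantile normalisation against 1003. With the actin ratio as a covariate, limma called 8 genes higher and 5 lower, and by at least 2-fold 7 and 5. Without suffix C it called 516 and 612, and by at least 2-fold 203 and 270. Leaving out 1 array at a time gave 776 to 984 genes higher, 1211 to 1495 lower, 259 to 338 at least 2-fold higher and 426 to 535 at least 2-fold lower. The genes that changed sign were not called: Slc1a3 was 0.12 with median centring, 0.0018 with runs of codes as a random block and 0.010, 0.015, 0.027, 0.083 and 0.011 without undifferentiated replicate 2 or 5 or 24 h replicate 1, 2 or 4, and Olig2 was -0.17 without undifferentiated replicate 3 and -0.077 without 24 h replicate 2, within a range of -0.17 to 0.24 over single arrays left out. The labels give no replicate numbers. The runs of title codes, used as a random block and, chosen after seeing the data, as a fixed block, linked arrays across groups in their place. With the fixed block 161 of the called named genes stayed called, Gas1 was lost, and Slc1a3 and Olig2 were 0.058 and -0.022. Signal near the floor of the array limits what can be said of genes at low levels.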
